A study of Mus musculus with 6 samples.

Results

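The TGF-beta and BMP pathway genes described here are the 64 protein-coding mouse genes whose symbols name TGF-beta and BMP family ligands, their receptors, the Smad proteins, latent TGF-beta binding proteins, secreted antagonists, the Id genes or Tgfbi. Membership was set by symbol, and the set was chosen with earlier results of these data known. The 64 genes are among the 35856 genes, 21790 of them protein-coding, that the data hold. Stranded, ribosome-depleted total RNA was sequenced in 6 libraries, 1 for each combination of a labelled arm and a labelled cell type. The study asked how expression changes when Mdm2, which encodes a ubiquitin ligase that restrains p53, is removed from cells that lack p53. All cells carried floxed Mdm2 alleles and no p53 (Mdm2 fl/fl, p53-/-). The libraries labelled deleted came from cells given 4-hydroxytamoxifen (4-OHT), which activates the CreERT2 recombinase, and the libraries labelled vehicle from cells given ethanol. The labelled cell types were adult fibroblasts grown out of ear punches and 2 tumours in short-term culture, a sarcoma and a T cell lymphoma. Exposure lasted 48 h for the libraries labelled fibroblast and sarcoma and 6 h for those labelled lymphoma. Cells had been infected with a retrovirus for CreERT2 and GFP or for GFP alone, and the labels do not give the vector of each library. No label describes cells with GFP alone that received 4-OHT, so deletion of Mdm2 and exposure to 4-OHT cannot be told apart. The age, sex and strain of the mice are not in the labels used here.

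Ligands of the TGF-beta superfamily are secreted dimers that bring together type II and type I receptor kinases. The type I receptor then phosphorylates receptor-regulated Smads, which join Smad4, enter the nucleus and act on transcription. TGF-beta and activin ligands signal mainly through Smad2 and Smad3, and BMP ligands through Smad1, Smad5 and Smad9. Latent binding proteins hold TGF-beta in the matrix, antagonists such as gremlin and noggin bind BMPs outside the cell, and Smad6 and Smad7 act as feedback inhibitors. In fibroblasts the TGF-beta branch is known for matrix production and contraction, and the BMP branch for raising the Id genes.

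Several values go against the labels. The RNA of Mdm2 itself measured in CPM (counts relative to library size after TMM scaling), was 30.5, 31.1 and 31.1 for the deleted label and 28.4, 28.0 and 28.5 for the vehicle label, in the order fibroblast, lymphoma, sarcoma, so it was not lower where the label says deleted. Reads outside a deleted part would still be counted, and the files give no read positions. Trp53 had 22.3 to 28.4 CPM in the 6 libraries. The library pair labelled lymphoma had 0 counts of Cd3d, Cd3e and Cd247, components of the T cell receptor complex, and 598314 counts of 8 fibroblast markers. The summed fibroblast markers (Col1a1, Col1a2, Col3a1, Pdgfra, Pdgfrb, Thy1, Dcn and Lum) lay between 7457 and 7619 CPM in the libraries labelled deleted and between 13131 and 13595 CPM in the libraries labelled vehicle, whatever the cell type label. Of 10 T cell markers 1, Lck, reached 1 CPM in any library, and the list summed to 3.72 to 4.30 CPM in the libraries labelled deleted and 1.89 to 2.23 CPM in those labelled vehicle. Leukocyte and macrophage markers summed to 7.17 to 9.10 CPM in libraries labelled deleted and 4.66 to 5.23 CPM in libraries labelled vehicle. Epithelial markers summed to 2.34 to 2.96 CPM in libraries labelled deleted and 0.667 to 1.09 CPM in those labelled vehicle, and endothelial markers to 0.915 to 1.37 CPM in libraries labelled deleted and 0.175 to 0.292 CPM in those labelled vehicle. Of the epithelial markers Krt8 rose (log2 fold change 2.58). Summed skeletal muscle markers stayed under 1 CPM with Myod1, Myog and Ckm at 0. Smooth muscle and pericyte markers summed to 139 to 149 CPM in libraries labelled deleted and 152 to 153 CPM in those labelled vehicle, and chondrocyte and osteoblast markers to 22.2 to 22.9 CPM in libraries labelled deleted and 16.9 to 18.4 CPM in those labelled vehicle. The part of these shifts in the results below was not tested. Libraries are therefore called by their labels throughout, and in each list of values the order within an arm is fibroblast, lymphoma, sarcoma. The libraries held 26243064 to 37517726 estimated counts, and a count of 0 allows up to 3 counts, which is 0.0796 to 0.113 CPM in a library.

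Of the 64 pathway genes, 48 had enough counts to be tested over the 3 labelled pairs with edgeR, and 14 rose, 20 fell and 14 were not called at an adjusted p under 0.05. Among all 15933 genes tested, 25.0% rose and 24.6% fell, so large shares of the transcriptome differ between the arms, and the pathway genes had 29.2% that rose and 41.7% that fell. Their median log2 fold change, libraries labelled deleted over libraries labelled vehicle, was -0.15, against 0.02 over all genes tested. Of the 34 called pathway genes (70.8% of those tested, against 49.6% of all genes), 33 had no overlap between the arms, which is 68.8% of those tested, against 46.5% of all genes. Of all called genes 93.7% had no overlap. Called changes of at least 0.5 on the log2 scale were found for 15 pathway genes (31.2%, against 17% of all genes) and of at least 2-fold for 4 (8.33%, against 6.18% of all genes). These 4 were Grem1 and Bmp2, which rose, Gdf5, which fell, and Inhbb, which was higher but was tested only because of its counts in the libraries labelled deleted. Of the 34 calls by edgeR, 16 were lost under at least 1 alternative fit or with 1 pair left out: Acvr1, Acvr1b, Acvr2a, Bmp1, Bmp6, Fstl1, Fstl3, Inhba, Ltbp1, Ltbp3, Ltbp4, Smad1, Smad2, Smad3, Smad5 and Tgfbi. In bulk RNA a smaller number of cells of one type and less RNA per cell cannot be told apart. The 16 genes not tested held between 0 and 10 counts in any library. They included the BMP ligand genes Bmp5, Bmp7, Bmp8a, Bmp8b, Bmp10 and Bmp15, the GDF genes Gdf2, Gdf3, Gdf6, Gdf9 and Gdf10, the inhibin subunit genes Inhbc and Inhbe, the antagonist Nog and the BMP receptor Bmpr1b, and 4 of them (Gdf2, Gdf3, Gdf10 and Inhbc) had 0 counts in every library. Of the 48 tested genes, Inhbb and Chrd reached the cutoff of the filter in all 3 libraries labelled deleted, but in 0 and 1 of those labelled vehicle. Acvr1c reached it in 2 libraries labelled deleted and 3 labelled vehicle. The counts of called genes above include Inhbb, and they do not cover genes that are low in both arms.

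**Figure D1:**
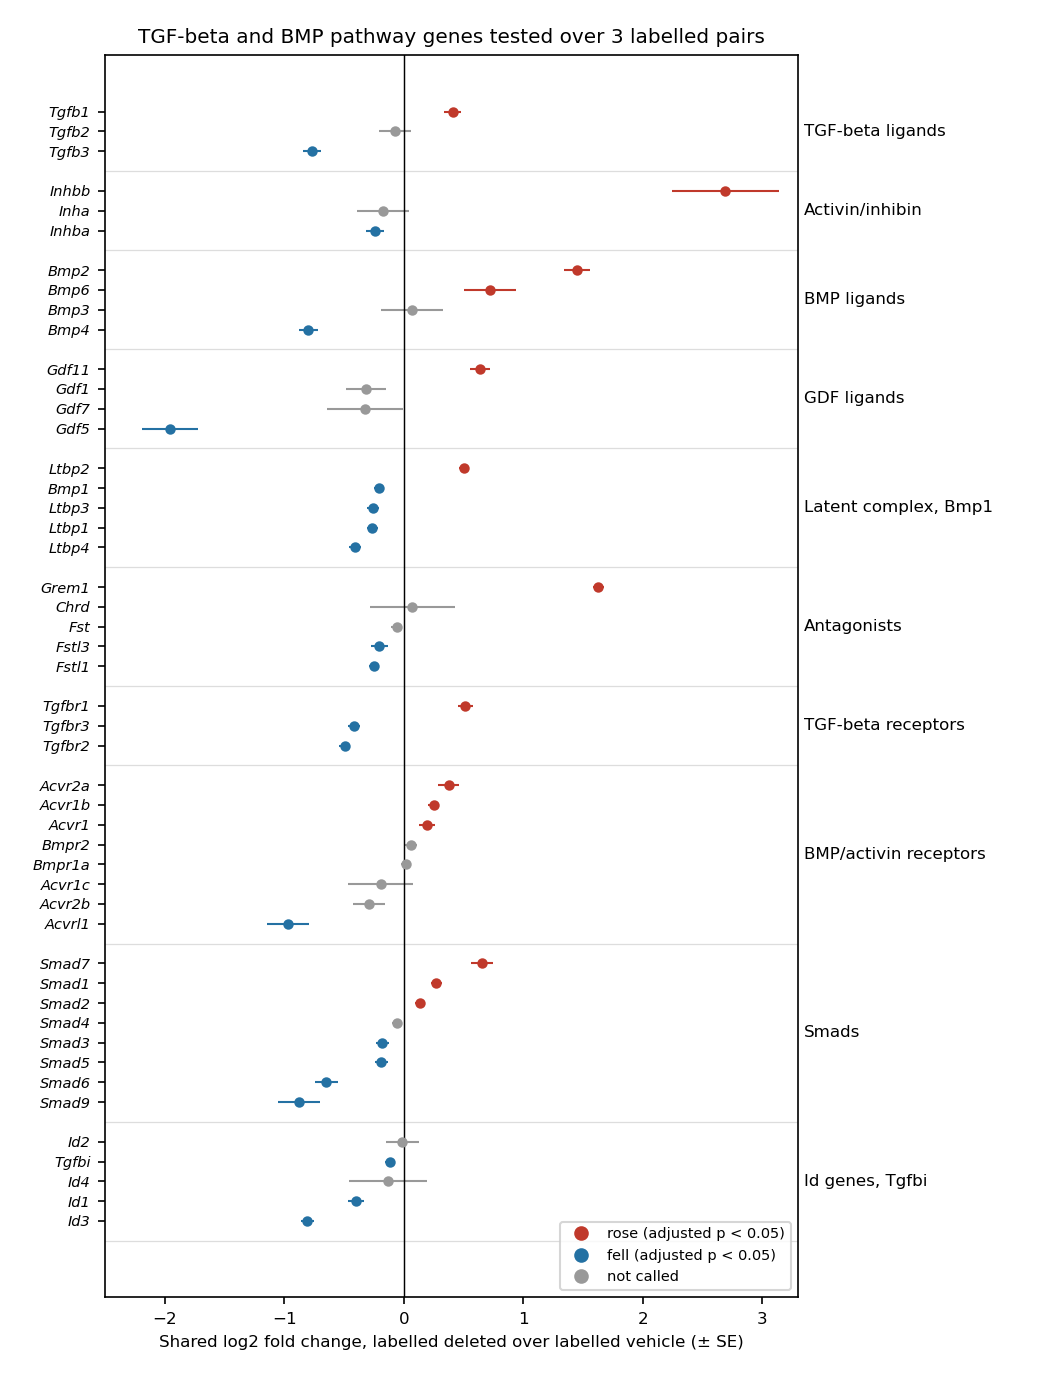
Shared log2 fold change of each of the 48 tested pathway genes (x axis, libraries labelled deleted over libraries labelled vehicle, points with SE from edgeR over 3 labelled pairs), grouped by role on the y axis. Red points rose, blue points fell and grey points were not called, and each ligand, receptor and Smad group with more than 2 tested genes holds points on both sides of 0.

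The 250 bases before the annotated start are shown for 3 genes, Grem1, which rose, and Bmp4 and Smad6, which fell. They had the largest changes at a mean of at least 5 CPM among genes with a window free of annotated exons. The windows were read 5′ to 3′ on the gene's strand from RefSeq's table (GRCm38.p6), and 46 of the 64 pathway genes were in that table. Capitals mark matches, on either strand, to 5 patterns: CAGAC, the Smad box, GGCGCC, a GC-rich BMP element, GAAANNGAA, an interferon-stimulated element, TTCNNNGAA, a STAT element, and GGANNNNCC, an NF-kB element. No 2 marked matches overlap.
Grem1, chr2:113758649-113758898, minus strand: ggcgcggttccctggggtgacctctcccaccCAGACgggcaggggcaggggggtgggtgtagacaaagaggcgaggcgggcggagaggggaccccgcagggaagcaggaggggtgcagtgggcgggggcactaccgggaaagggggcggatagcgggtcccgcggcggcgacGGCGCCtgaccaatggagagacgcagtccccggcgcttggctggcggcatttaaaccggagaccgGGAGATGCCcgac
Bmp4, chr14:46390670-46390919, minus strand: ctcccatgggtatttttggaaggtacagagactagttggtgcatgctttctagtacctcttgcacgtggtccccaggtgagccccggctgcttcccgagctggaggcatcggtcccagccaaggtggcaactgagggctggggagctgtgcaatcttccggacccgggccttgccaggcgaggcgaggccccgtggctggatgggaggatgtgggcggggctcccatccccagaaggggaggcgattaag
Smad6, chr9:64022060-64022309, minus strand: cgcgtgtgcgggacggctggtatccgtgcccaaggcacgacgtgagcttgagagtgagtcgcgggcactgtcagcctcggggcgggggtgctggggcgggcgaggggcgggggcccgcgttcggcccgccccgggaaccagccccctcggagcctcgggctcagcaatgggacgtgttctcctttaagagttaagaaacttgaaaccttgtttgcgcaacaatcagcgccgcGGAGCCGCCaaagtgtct
The Grem1 window held 1 CAGAC at base 32 from its 5′ end, 1 GGCGCC at base 173 and 1 GGANNNNCC at base 238. The Smad6 window held 1 GGANNNNCC at base 233, and the Bmp4 window held no match to the 5 patterns. Of all 32851 windows of this length in the table, 42.2% held CAGAC, 9.59% GGCGCC, 7.13% GAAANNGAA, 7.02% TTCNNNGAA and 42.3% GGANNNNCC. Among the 56 windows of pathway genes the shares were 46.4%, 23.2%, 5.36%, 1.79% and 58.9% in the same order of patterns, and their median GC content was 63.8%, against 52.4% over all windows. A match describes letters in the window and is not a binding site.

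Among the TGF-beta ligands, which drive matrix production and restrain growth of many cell types, Tgfb1 and Tgfb3 moved in opposite directions. Tgfb1 (ENSMUSG00000002603.15) had 13.7, 13.6 and 12.3 CPM in the libraries labelled deleted, against 10.4, 10.1 and 9.34 CPM in the libraries labelled vehicle. All 3 libraries labelled deleted were above all 3 labelled vehicle, and the gene rose by a log2 fold change of 0.41 ± 0.07 (SE, 3 pairs, edgeR adjusted p = 0.000441). Tgfb3 (chromosome 12, 86056745 to 86079041, GRCm38) had 12.1, 11.6 and 9.78 CPM in the libraries labelled deleted and 18.8, 18.7 and 19.1 CPM in the libraries labelled vehicle. No library of one arm reached the other, and Tgfb3 fell by 0.76 ± 0.08 on the log2 scale (edgeR adjusted p = 7.9e-06). Tgfb2 had 4.17, 4.36 and 4.87 CPM in the libraries labelled deleted and 5.58, 4.49 and 4.14 CPM in those labelled vehicle. These ranges overlap, and the log2 fold change of Tgfb2 was -0.07 ± 0.13 (edgeR adjusted p = 0.67). Per kilobase of the counted sequence, Tgfb1 over Tgfb3 was 1.26 ± 0.0640 in the libraries labelled deleted and 0.557 ± 0.0360 in those labelled vehicle (SD, n = 3 each), so the ligand with the higher level differed between the arms. Summed per kilobase, the TGF-beta ligands stood at 23.8 ± 1.36 CPM per kilobase in libraries labelled deleted and 27.5 ± 0.917 CPM per kilobase in libraries labelled vehicle. Tgfb3 overlaps Ttll5 on the other strand, and the strand setting of the counting is not given in the sources used here.

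Activins and inhibins are built from the products of the Inh genes. Inhba, the beta A subunit of activin A, had 9.97, 10.9 and 8.77 CPM in libraries labelled deleted and 11.5, 11.9 and 11.5 CPM in libraries labelled vehicle. It fell by 0.24 ± 0.08 on the log2 scale (edgeR adjusted p = 0.023), a call that was lost without the pair labelled sarcoma (adjusted p = 0.135). Inhbb, the beta B subunit, was low in every library. It had 0.949, 0.638 and 1.01 CPM in the libraries labelled deleted, on 28, 17 and 28 counts, and 0.14, 0 and 0.239 CPM in the libraries labelled vehicle, on 4, 0 and 9 counts. The arms did not overlap. Because Inhbb passed the filter through the libraries labelled deleted alone, its edgeR call is not used as support. Over the 3 libraries of each arm, 73 counts against 13 give a ratio of 6.42 with a 95% counting interval of 3.53 to 12.6. That interval leaves out variation between libraries. Inha, the alpha subunit that makes inhibins, was not called (log2 fold change -0.18).

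BMP2 and BMP4 are close relatives that bind the same receptors, and their genes moved in opposite directions. Bmp2 (chromosome 2, 133552159 to 133562885) had 10.1, 9.01 and 10.1 CPM in the libraries labelled deleted and 3.02, 3.68 and 3.95 CPM in the libraries labelled vehicle. The lowest library labelled deleted was more than 2-fold above the highest labelled vehicle, and the log2 fold change was 1.45 ± 0.11 (edgeR adjusted p = 6.49e-07). Bmp4 (chromosome 14, 46383520 to 46390669) had 5.73, 5.75 and 6.14 CPM in the libraries labelled deleted and 9.75, 10.4 and 10.5 CPM in those labelled vehicle. It was lower in all 3 libraries labelled deleted and fell by 0.80 ± 0.08 on the log2 scale (edgeR adjusted p = 1.04e-05). Per kilobase, Bmp2 over Bmp4 was 1.72 ± 0.0982 in the libraries labelled deleted and 0.359 ± 0.0360 in those labelled vehicle (SD, n = 3 each), so Bmp4 had the higher level under the vehicle label and Bmp2 under the deleted label. The 10 BMP ligand genes summed to 14.6 ± 0.623 CPM per kilobase in the libraries labelled deleted and 12.4 ± 0.613 CPM per kilobase in those labelled vehicle.

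Bmp6, which is best known as a regulator of iron balance in liver, was low, with 1.25, 1.13 and 1.3 CPM in libraries labelled deleted and 0.842, 0.675 and 0.716 CPM in libraries labelled vehicle. Every library labelled deleted was above every one labelled vehicle, and the log2 fold change was 0.72 ± 0.22 (edgeR adjusted p = 0.0168). That call was lost without the pair labelled lymphoma (adjusted p = 0.0565) and without the pair labelled sarcoma (adjusted p = 0.0847). Bmp3 was not called (log2 fold change 0.07).

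Of the 4 tested GDF ligand genes 1 rose, 1 fell and 2 were not called, against 25.0% that rose and 24.6% that fell among all genes tested. Gdf11, a ligand close to myostatin that signals through Smad2 and Smad3, had 10.3, 12.4 and 11.0 CPM in libraries labelled deleted and 6.81, 7.08 and 7.77 CPM in libraries labelled vehicle. Its arms did not overlap, and it rose by 0.64 ± 0.08 on the log2 scale (edgeR adjusted p = 7.8e-05). Gdf5, a BMP-like ligand of joint development, had 0.373, 0.488 and 0.433 CPM in libraries labelled deleted and 1.58, 1.65 and 1.80 CPM in libraries labelled vehicle. Every library labelled deleted held 11 to 13 counts of Gdf5 and every library labelled vehicle 45 to 68 counts, and the gene fell by 1.95 ± 0.23 on the log2 scale (edgeR adjusted p = 3.34e-05). Gdf1 and Gdf7 were not called (log2 fold changes -0.31 and -0.32), and Gdf1 shares a transcribed region with Cers1 on the same strand, which makes its counts uncertain.

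**Figure D2:**
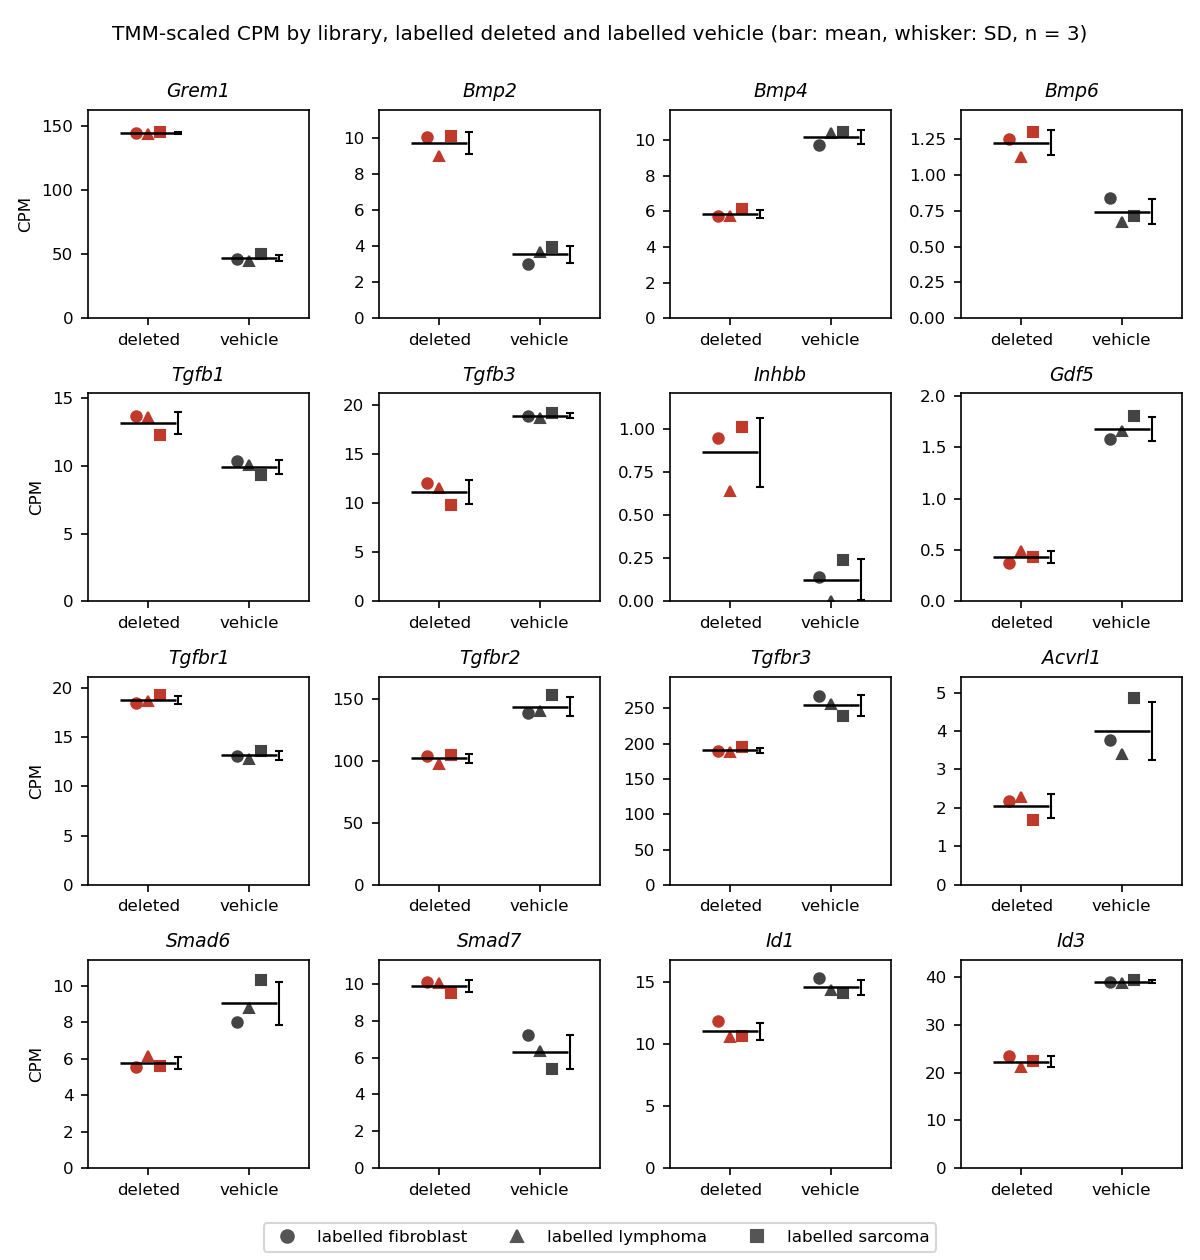
CPM (y axis, from 0, a scale for each gene) of 16 pathway genes in the 3 libraries labelled deleted (red, left) and the 3 labelled vehicle (grey, right), with marker shape for the cell type label, a bar at the mean and a whisker of 1 SD (n = 3). In each panel the arms do not overlap, as for Grem1 at 144 to 145 CPM in libraries labelled deleted and 44.8 to 49.6 CPM in libraries labelled vehicle. All genes shown were picked from called genes, and 93.7% of all called genes had no overlap, so this separation comes with the choice. Inhbb passed the filter through the libraries labelled deleted alone.

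The latent TGF-beta binding proteins tether latent TGF-beta to the extracellular matrix. Of their 4 genes 3 fell and 1 rose, against 24.6% that fell and 25.0% that rose among all genes tested. Ltbp1, the most abundant of them in CPM, had 617, 632 and 649 CPM in libraries labelled deleted and 769, 745 and 759.8 CPM in libraries labelled vehicle. All libraries labelled deleted were below all labelled vehicle, and Ltbp1 fell by 0.26 ± 0.04 on the log2 scale (edgeR adjusted p = 0.000421). Ltbp2, the member of the family that does not bind latent TGF-beta, had 169, 173 and 169.8 CPM in the libraries labelled deleted and 115, 121 and 125 CPM in the libraries labelled vehicle. It was higher in every library labelled deleted, with a log2 fold change of 0.51 ± 0.04 (edgeR adjusted p = 2.11e-06). Ltbp3 and Ltbp4 fell, with log2 fold changes of -0.26 and -0.41. The calls of Ltbp1 and Ltbp3 were lost by limma on both TPM scales, and that of Ltbp4 on log2(TPM + 1). The 4 genes summed to 218 ± 5.94 CPM per kilobase in libraries labelled deleted and 248 ± 0.798 CPM per kilobase in libraries labelled vehicle. Bmp1, which despite its name encodes a procollagen C-proteinase that also cleaves the BMP antagonist chordin, had 190.0, 189.8 and 189.9 CPM in libraries labelled deleted and 215, 216 and 225 CPM in libraries labelled vehicle. It was lower in all libraries labelled deleted and fell by 0.20 ± 0.04 on the log2 scale (edgeR adjusted p = 0.00177).

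Of the 5 tested antagonist genes, Grem1 rose, Fstl1 and Fstl3 fell, and Fst and Chrd were not called. The shares among all genes tested were 25.0% that rose and 24.6% that fell. Grem1 (ENSMUSG00000074934.3, chromosome 2, 113746164 to 113758646, minus strand, the gene after the first window printed above) encodes gremlin 1, which binds BMP2 and BMP4. It had 145, 144 and 145 CPM in the libraries labelled deleted and 45.9, 44.8 and 49.6 CPM in the libraries labelled vehicle. The 3 libraries labelled deleted lay within 2 CPM of each other, about 3 times the level of the libraries labelled vehicle, and the log2 fold change was 1.63 ± 0.04 (edgeR adjusted p = 6.89e-11). Per kilobase, Grem1 exceeded the sum of Bmp2 and Bmp4 by 20.1 ± 0.892 times in the libraries labelled deleted and 7.46 ± 0.468 times in the libraries labelled vehicle (SD, n = 3 each). Other classical BMP antagonists were hardly counted, with at most 2 counts of Nog, which encodes noggin, in any library and 9 to 14 counts of Chrd, which encodes chordin. Fst, which encodes the activin antagonist follistatin, was not called (log2 fold change -0.06). Fstl1, a secreted follistatin-like glycoprotein, had 332, 330.3 and 321 CPM in the libraries labelled deleted and 384, 381 and 404 CPM in the libraries labelled vehicle. Its arms did not overlap and it fell by 0.25 ± 0.04 on the log2 scale (edgeR adjusted p = 0.000644). Fstl3, a second activin-binding protein, had a log2 fold change of -0.20 that passed the threshold (edgeR adjusted p = 0.0367), and the call was lost when any 1 of the 3 pairs was left out (adjusted p = 0.0547 to 0.137).

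The 3 TGF-beta receptors did not move together. Tgfbr1, the type I kinase, had 18.4, 18.6 and 19.2 CPM in libraries labelled deleted and 13.1, 12.8 and 13.6 CPM in libraries labelled vehicle. It was higher in all 3 libraries labelled deleted, with a log2 fold change of 0.52 ± 0.06 (edgeR adjusted p = 3.37e-05). Tgfbr2, the type II kinase that binds the ligand first, fell by 0.50 ± 0.04 on the log2 scale (edgeR adjusted p = 3.15e-06). Tgfbr3, which encodes the co-receptor betaglycan, had 189, 188 and 194 CPM in libraries labelled deleted and 268, 256 and 238 CPM in libraries labelled vehicle. The arms did not overlap, and Tgfbr3 fell by 0.41 ± 0.05 on the log2 scale (edgeR adjusted p = 2.99e-05). Per kilobase, Tgfbr1 over Tgfbr2 was 0.207 ± 0.00756 in libraries labelled deleted and 0.103 ± 0.00298 in libraries labelled vehicle (SD, n = 3 each), so the type II gene had the higher level in both arms. All 3 TGF-beta receptor genes together summed to 147 ± 3.52 CPM per kilobase in libraries labelled deleted and 193 ± 2.07 CPM per kilobase in libraries labelled vehicle.

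Of the 9 BMP and activin receptor genes 8 were tested, and 3 rose, 1 fell and 4 were not called, against 25.0% higher and 24.6% lower among all genes tested. Acvrl1, which encodes ALK1, the type I receptor for BMP9 that is best known from endothelium, had 2.17, 2.29 and 1.70 CPM in libraries labelled deleted and 3.75, 3.41 and 4.86 CPM in libraries labelled vehicle. Its arms did not overlap and it fell by 0.97 ± 0.17 on the log2 scale (edgeR adjusted p = 0.000719). Bmpr1a, a type I BMP receptor, had 73.6, 75.0 and 74.9 CPM in libraries labelled deleted and 71.5, 71.7 and 76.8 CPM in libraries labelled vehicle. Those ranges overlap, and the log2 fold change of Bmpr1a was 0.02 ± 0.04 (edgeR adjusted p = 0.677). The activin receptors Acvr1b (type I) and Acvr2a (type II) rose, with log2 fold changes of 0.25 and 0.38. The Acvr1b call was lost by limma on TPM (adjusted p = 0.0659 and 0.0702 with pseudocounts of 0.1 and 1), and the Acvr2a call by DESeq2 (adjusted p = 0.0933). Acvr1, which encodes ALK2, passed the threshold as higher with a log2 fold change of 0.20, but its arms overlap, and leaving out the pair labelled fibroblast (adjusted p = 0.174) or the pair labelled sarcoma (adjusted p = 0.135) ended the call. Bmpr2, Acvr2b and Acvr1c were not called, with log2 fold changes of 0.06, -0.29 and -0.19.

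**Figure D3:**
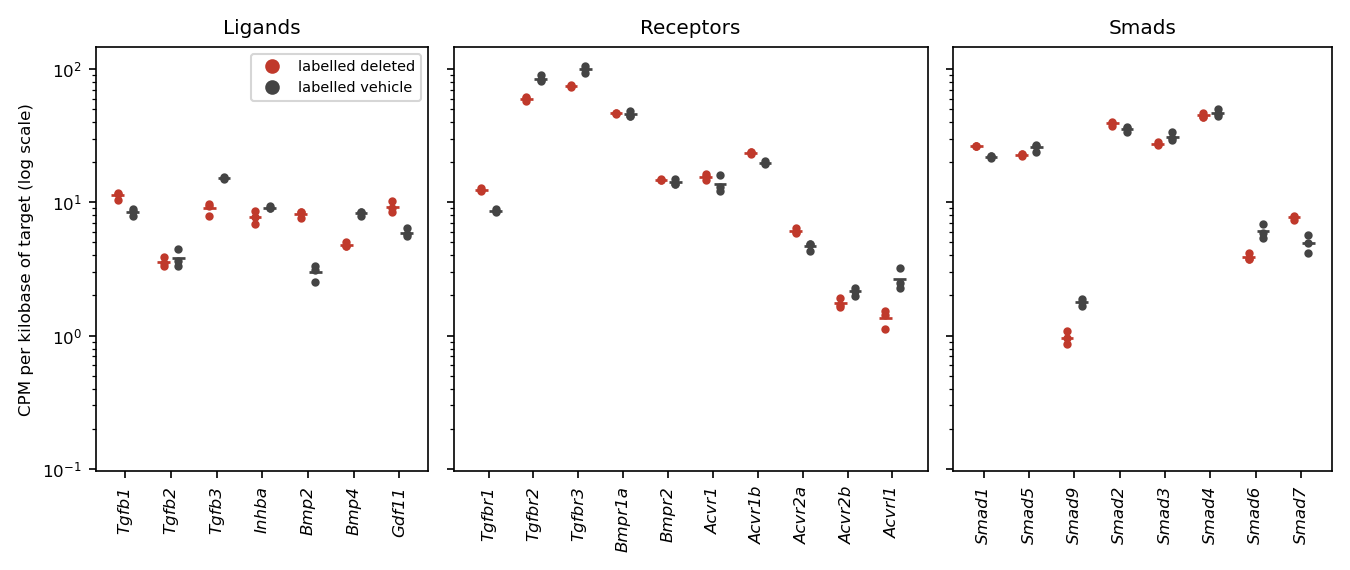
Levels of ligand, receptor and Smad genes as CPM per kilobase of the counted target (y axis, log scale) in the 3 libraries labelled deleted (red, left of each pair) and the 3 labelled vehicle (grey), with a line at each mean. Bmp2 and Bmp4, and Tgfb1 and Tgfb3, change places between the arms, while Tgfbr3 and Tgfbr2 have the highest levels of the receptors shown in both arms.

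The receptor-regulated Smads changed by small amounts except Smad9. Smad2 had 56.6, 52.2 and 55.7 CPM in libraries labelled deleted and 51.5, 47.5 and 50.7 CPM in libraries labelled vehicle. The arms did not overlap, and the log2 fold change was 0.14 ± 0.04 (edgeR adjusted p = 0.0167), a call that ended without the fibroblast pair (adjusted p = 0.0981) and without the pair labelled lymphoma (adjusted p = 0.085). Smad3 had 34.8, 36.0 and 34.5 CPM in libraries labelled deleted and 37.6, 38.7 and 43.0 CPM in libraries labelled vehicle. It was lower in all libraries labelled deleted and fell by 0.18 ± 0.05 on the log2 scale (edgeR adjusted p = 0.0158), a call lost without the pair labelled sarcoma (adjusted p = 0.104). Summed per kilobase, Smad2 and Smad3 stood at 66.5 ± 1.07 in libraries labelled deleted and 66.6 ± 2.82 CPM per kilobase in libraries labelled vehicle (SD, n = 3 each), a difference smaller than the spread between libraries. Of the BMP-branch Smads, Smad1 rose (log2 fold change 0.27), and Smad5 fell (log2 fold change -0.19, a call lost without the pair labelled sarcoma at adjusted p = 0.0636). Smad9 had 1.39, 1.24 and 1.12 CPM in libraries labelled deleted and 2.14, 2.33 and 2.41 CPM in libraries labelled vehicle. Its arms did not overlap and it fell by 0.88 ± 0.17 on the log2 scale (edgeR adjusted p = 0.00147), but it made up little of the BMP-branch sum, which was 50.2 ± 0.363 CPM per kilobase in libraries labelled deleted and 49.6 ± 1.70 CPM per kilobase in libraries labelled vehicle. Smad4, the partner shared by both branches, had 72.9, 78.1 and 72.8 CPM in libraries labelled deleted and 76.4, 82.9 and 73.3 CPM in libraries labelled vehicle. These ranges overlap, and the log2 fold change of Smad4 was -0.05 ± 0.04 (edgeR adjusted p = 0.299).

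The inhibitory Smads moved in opposite directions. Smad6, the inhibitor that acts mainly on the BMP branch, had 5.56, 6.16 and 5.60 CPM in libraries labelled deleted and 8.0, 8.80 and 10.3 CPM in libraries labelled vehicle. The arms did not overlap and Smad6, whose upstream window is printed above, fell by 0.65 ± 0.10 on the log2 scale (edgeR adjusted p = 0.000212). Smad7, which blocks both branches, had 10.1, 10.0 and 9.49 CPM in libraries labelled deleted and 7.23, 6.34 and 5.36 CPM in libraries labelled vehicle. It was higher in every library labelled deleted, and rose by 0.65 ± 0.09 on the log2 scale (edgeR adjusted p = 0.000107). Per kilobase, Smad7 over Smad6 was 1.99 ± 0.111 in libraries labelled deleted and 0.830 ± 0.223 in libraries labelled vehicle (SD, n = 3 each).

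The Id genes encode inhibitors of bHLH transcription factors and are direct targets of BMP signalling. Id3 had 23.4, 21.3 and 22.3 CPM in libraries labelled deleted and 39.0, 38.7 and 39.4 CPM in libraries labelled vehicle. The arms were far apart against their spread, and Id3 fell by 0.81 ± 0.05 on the log2 scale (edgeR adjusted p = 2.02e-07). Id1 had 11.8, 10.6 and 10.6 CPM in libraries labelled deleted and 15.3, 14.3 and 14.1 CPM in libraries labelled vehicle. It too was lower in all 3 libraries labelled deleted and fell by 0.40 ± 0.07 on the log2 scale (edgeR adjusted p = 0.000394). Id2 had 4.07, 3.68 and 3.39 CPM in libraries labelled deleted and 3.47, 3.41 and 4.30 CPM in libraries labelled vehicle, and its log2 fold change was -0.01 ± 0.14 (edgeR adjusted p = 0.953). Id4 had 0.271, 0.376 and 0.433 CPM in libraries labelled deleted and 0.281, 0.371 and 0.531 CPM in libraries labelled vehicle, and its log2 fold change was -0.13 ± 0.33 (edgeR adjusted p = 0.762). The arms overlap for Id2 and Id4 alike. The 4 Id genes summed to 96.6 ± 4.92 CPM per kilobase in libraries labelled deleted and 151 ± 2.18 CPM per kilobase in libraries labelled vehicle (SD, n = 3 each). Tgfbi, a matrix protein named for its induction by TGF-beta, had the highest level per kilobase of the 64 genes, with 819.6, 821 and 840.3 CPM in libraries labelled deleted and 882, 899 and 900.2 CPM in libraries labelled vehicle. It was lower in all libraries labelled deleted and fell by 0.11 ± 0.04 on the log2 scale (edgeR adjusted p = 0.0468), a call lost without the pair labelled lymphoma (adjusted p = 0.259).

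Other genes of the pathway were taken from 5 lists, in which Bambi, Smurf1, Skil and Pmepa1 each stand in more than 1 list. Of 26 intracellular regulators, all tested, 12 rose and 6 fell, against 25.0% that rose and 24.6% that fell among all genes tested. The median log2 fold change of these regulators was 0.04, against 0.02 over all genes tested. Skil, a repressor of Smad-dependent transcription, stood at 27.3 ± 0.640 CPM in libraries labelled deleted and 17 ± 0.703 CPM in libraries labelled vehicle (SD, n = 3 each) and rose by 0.68 ± 0.06 on the log2 scale (edgeR adjusted p = 1.87e-06). Smurf1, a ubiquitin ligase for BMP-branch Smads, averaged 72.2 ± 2.24 CPM in libraries labelled deleted and 46.7 ± 1.68 CPM in libraries labelled vehicle, and rose by 0.63 on the log2 scale. Tgfbrap1, a receptor-associated protein, averaged 10.5 ± 0.127 CPM in libraries labelled deleted and 6.43 ± 0.0976 CPM in libraries labelled vehicle, and rose by 0.71. Pmepa1, a TGF-beta target that limits Smad signalling, rose by 0.44. The regulators just described have the largest absolute changes of the list, and all of them rose. The 6 that fell were Ctdsp1, Ldlrad4, Ctdsp2, Tab1, Ski and Tob1, with log2 fold changes of -0.42 to -0.20. The list includes inhibitors and activators of the pathway.

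Of 29 other extracellular modulators 20 were tested. Of these 5, Itgb6 among them, rose and 6 fell, against 25.0% and 24.6% among all genes tested. The median log2 fold change of the list was -0.07. Fbn2, which encodes the microfibril protein fibrillin 2, averaged 103 ± 3.34 CPM in libraries labelled deleted and 214 ± 10.1 CPM in libraries labelled vehicle and fell by 1.06 ± 0.04 on the log2 scale (edgeR adjusted p = 4.17e-09). Dcn, which encodes decorin, a proteoglycan that binds TGF-beta and is also a fibroblast marker, fell by 0.83 ± 0.04 (edgeR adjusted p = 1.55e-08). Bmper, a BMP-binding protein, was low and rose, with a log2 fold change of 0.96. Itgb6, a subunit of an integrin that activates latent TGF-beta, had 44 counts over the libraries labelled deleted and 1 count over the libraries labelled vehicle, a ratio of 50.3. The 95% counting interval of that ratio, 8.57 to 2030.0, leaves out variation between libraries. Itgb6 was tested only because of its counts in the libraries labelled deleted, so its call is not used as support. The median of the list does not depend on the size of that ratio.

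Of 10 other receptors and ligands 6 were tested. Of these 4, Amhr2 among them, rose and 1 fell, against 25.0% and 24.6% among all genes tested. The median log2 fold change of the list was 0.64. Gdf15, a distant family member induced by many stresses, averaged 5.41 ± 0.230 CPM in libraries labelled deleted and 1.70 ± 0.281 CPM in libraries labelled vehicle and rose by 1.66 ± 0.14 on the log2 scale (edgeR adjusted p = 1.71e-06). Bambi, a pseudoreceptor that lacks the kinase domain, averaged 16.6 ± 1.52 CPM in libraries labelled deleted and 9.54 ± 0.644 CPM in libraries labelled vehicle and rose by 0.80 ± 0.08 (edgeR adjusted p = 5.87e-06). Amhr2, the receptor for anti-Müllerian hormone, had 17 to 22 counts in a library labelled deleted, against 5 to 13 counts in one labelled vehicle. Because Amhr2 passed the filter on low counts through the libraries labelled deleted, its call is not used as support. The count of genes that rose and the median of this short list include Amhr2. Lefty1, an inhibitor of nodal signalling, fell by 0.83 ± 0.20 (edgeR adjusted p = 0.00508), and that call was lost without the pair labelled sarcoma (adjusted p = 0.0519).

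Genes listed as targets of TGF-beta did not move one way. Of the 27 found 26 were tested, and 8 rose and 11 fell, against 25.0% and 24.6% among all genes tested. The median log2 fold change of the list was -0.10. Postn, which encodes the matrix protein periostin, averaged 13.8 ± 0.953 CPM in libraries labelled deleted and 26.3 ± 1.19 CPM in libraries labelled vehicle and fell by 0.93 ± 0.06 (edgeR adjusted p = 2e-07). Tgfb1i1, a focal adhesion protein, and Snai1, a transcription factor of epithelial-mesenchymal transition, fell by 0.84 and 0.82. The 8 that rose include Skil and Pmepa1, named above among the regulators, with log2 fold changes of 0.68 and 0.44. The list holds Col1a1 and Col1a2, which are also among the fibroblast markers above, and both fell.

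Genes listed as targets of BMP were also split. Of 17 listed 11 were tested, and 4 rose and 4 fell, against 25.0% and 24.6% among all genes tested. The median log2 fold change of the list was 0.14. Alpl, which encodes the alkaline phosphatase of bone, averaged 1.77 ± 0.278 CPM in libraries labelled deleted and 0.410 ± 0.125 CPM in libraries labelled vehicle and had a log2 fold change of 2.12 ± 0.24. But Alpl passed the filter on low counts in all 3 libraries labelled deleted and in 2 labelled vehicle. Its call is therefore not used as support, although the count of genes that rose includes it. Hes1, a transcriptional repressor better known as a target of Notch, averaged 1.21 ± 0.0816 CPM in libraries labelled deleted and 3.53 ± 0.519 CPM in libraries labelled vehicle and fell by 1.53 ± 0.17 (edgeR adjusted p = 1.64e-05). Atoh8 and Tmem100, both below 2 CPM on average in each arm, fell by 0.90 and 0.86. The Id genes were not counted in this list.

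Within each labelled pair there is 1 library per arm and no test, so ratios are given with a 95% counting interval that does not cover variation between cultures. In each of the 3 pairs, 33 of the 64 genes reached a mean of 5 CPM, and the same 2, Grem1 and Bmp2, were at least 2-fold higher in the library labelled deleted, while 0 were at least 2-fold lower. Over all genes of that level, 2.77%, 2.79% and 2.82% were at least 2-fold higher in the fibroblast, lymphoma and sarcoma pairs, and 0.59%, 0.69% and 0.691% were at least 2-fold lower. The Grem1 ratio was 3.15 (2.96 to 3.36) in the pair labelled fibroblast, 3.21 (3.02 to 3.42) in the pair labelled lymphoma and 2.93 (2.77 to 3.10) in the pair labelled sarcoma. These intervals overlap one another, although the labels give 6 h of exposure for the pair labelled lymphoma and 48 h for the others. The Bmp2 ratio was 3.34 (2.62 to 4.29) in the pair labelled fibroblast, 2.45 (1.95 to 3.10) in the pair labelled lymphoma and 2.56 (2.09 to 3.14) in the pair labelled sarcoma. Acvrl1, at lower counts, had ratios of 0.578 (0.417 to 0.795), 0.672 (0.481 to 0.933) and 0.349 (0.248 to 0.484) in the same order of pairs. The median log2 ratio of the 33 genes, on the scale of log2(CPM + 0.5), was -0.11, -0.08 and -0.13 in the fibroblast, lymphoma and sarcoma pairs, and over all genes of that level it was -0.0027, 0.0023 and -0.013 in these pairs.

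**Figure D4:**
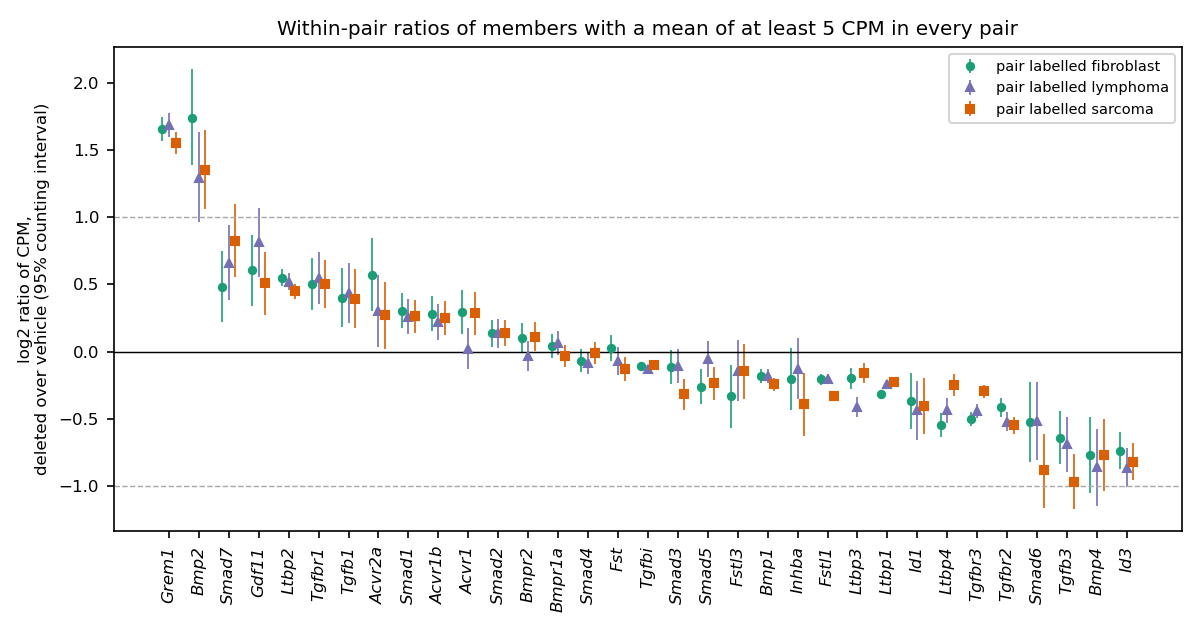
Log2 ratio of CPM, library labelled deleted over library labelled vehicle (y axis), for the 33 pathway genes that averaged 5 CPM or more, 1 point for each labelled pair with its 95% counting interval (no replicate error), ordered along the x axis by size. Dashed lines mark 2-fold, which Grem1 and Bmp2 pass in all 3 pairs, and Smad6, Tgfb3, Bmp4 and Id3 lie at the low end.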

How the data were processed

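The authors deposited estimated counts and TPM for each transcript target, made with kallisto 0.43.0 on GRCm38, per the submitters' processing notes. The libraries were stranded, per the labels' protocols, while the transcript set and the strand setting of the counting are not given in the sources used here. GENCODE M21 (GRCm38) gave the gene of each of 76055 targets by its transcript ID, and the 1006 targets without a match held 0.392% to 0.410% of a library's counts. Of 133 targets of the pathway genes 127 had exactly the coding length, so the counts of these targets leave out untranslated regions. Estimated counts were summed per gene and rounded, and TPM was summed per gene for alternatives. Levels were compared between genes as CPM per kilobase of the target that held most of a gene's counts.

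The shared effect was tested over 6 libraries with edgeR 4.0.16 (quasi-likelihood, two-sided, TMM, Benjamini-Hochberg adjustment over 15933 genes, threshold 0.05), blocking on the cell type label. Low counts were filtered by filterByExpr with the arms as groups, so a gene needed any 3 of the 6 libraries at the cutoff. The residual degrees of freedom were 2 and the prior degrees of freedom 9.23. An SE is the absolute log2 fold change divided by the square root of the F statistic. Pairs come from the labels, and the 2 libraries of a pair deviated from their arm means with correlations of 0.0324 (fibroblast), 0.139 (lymphoma) and 0.141 (sarcoma). Within a pair, ratios carry a 95% Clopper-Pearson interval of the 2 counts, and a gene was counted past 2-fold on log2(CPM + 0.5) at a mean of at least 5 CPM. Intervals and the floor of 3 counts cover counting error only. Libraries of the same arm were compared over genes with at least 50 counts. The chi-square per gene averaged 9.07 to 85.9, above sampling noise in each of the 6 comparisons, so libraries were kept apart in the fits. Counts pooled over an arm, as for Inhbb and Itgb6, have intervals that leave out this variation between libraries. Apart from the cell type names, the labels do not state separate cultures, so the p-values reflect only how these libraries vary, and that variation may be technical.

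The pathway genes and all gene lists were chosen with earlier results of these data known. Values in every library are given for the gene with the highest mean TPM in each role, for called genes with an absolute log2 fold change of at least 0.5, and for Tgfb1 to Tgfb3, Smad2, Smad3, Smad4, Smad7 and Id1 to Id4. From each list of other pathway genes, up to 4 called genes with the largest absolute log2 fold changes are named. Some genes that these rules name are not reported here. Upstream windows are shown for the genes with the largest changes at a mean of at least 5 CPM that had a window free of annotated exons. Bmp2, Tgfb3 and Smad7 had no window in the table. Alternatives were DESeq2 1.42.0, its size factors in edgeR, no filter, no block, protein-coding genes only, limma 3.58.1 on log2(TPM + 1) and log2(TPM + 0.1), and leaving out each pair. R 4.3.3, Python 3.11.15, pandas 2.3.3, numpy 2.4.6, scipy 1.17.1 and matplotlib 3.10.9 were used.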

Additional observations from a re-analysis of the deposited data

How the results depend on the processing

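Of the 34 called pathway genes, 18 were called under every alternative in which they were tested, and of 479 results of single pathway genes under alternatives 426 kept their direction and their side of the threshold, 49 were no longer called, 2 became called (Acvr2b, as lower) and 2 changed sign. Both changes of sign were Acvr1, with a log2 difference of -0.0201 by limma on log2(TPM + 1) and of -0.0227 on log2(TPM + 0.1). DESeq2 called 2427 genes higher and 2420 lower, with 10 pathway genes higher and 16 lower, and Acvr1, Acvr2a, Bmp6, Fstl3, Inhba, Smad2, Smad3 and Smad5 no longer called. Limma on log2(TPM + 1) called 2352 higher and 1552 lower, and on log2(TPM + 0.1) 2401 higher and 1589 lower, with 10 and 11 pathway genes lower. Acvr1b, Bmp1, Fstl1, Fstl3, Inhba, Ltbp1, Ltbp3, Smad1, Smad2, Smad3, Smad5 and Tgfbi were not called on either TPM scale, nor was Ltbp4 on log2(TPM + 1). Higher calls were then 60.2% of all calls, against 50.4% in edgeR. Leaving out each pair gave 3256 to 3540 genes higher and 3185 to 3949 lower, and 12 to 12 pathway genes higher and 17 to 19 lower. Without the replicate block 3742 genes rose and 3772 fell, with 13 and 19 pathway genes, and Acvr1 and Fstl3 were no longer called. Without the filter 60 pathway genes were tested, and 14 rose and 22 fell. Within pairs, a minimum of 1 CPM added 1 gene at least 2-fold lower in the pair labelled lymphoma (Gdf5) and 2 in the pair labelled sarcoma (Acvrl1, Gdf5). For Acvr1 a short target held 22.7% of the TPM. The causes of these differences between alternatives, that of Acvr1 included, were not tested. Genes under about 2 CPM rest on fewer than 100 counts per library, which limits what can be called for them.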

Other observations

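The deposited TPM and the counts gave different pictures of a few receptors and ligands. Bmpr1a drew 86.6% of its counts but 16.0% of its TPM from its main target of 1599 bases, and a target of 116 bases (Bmpr1a-204) held 76.1% of its TPM on 4.12% of its counts. Tgfb1 drew 98.0% of its counts but 56.7% of its TPM from its main target, and a target of 150 bases (Tgfb1-202) held the other 43.3% of its TPM. For Acvr1, a target of 390 bases (Acvr1-205) held 22.7% of the TPM on 4.58% of the counts. In the order fibroblast, lymphoma, sarcoma, Acvr1-205 had 0.508, 0.905 and 0.520 CPM for the deleted label and 1.70, 0.962 and 1.56 CPM for the vehicle label, while the 4 full-length targets of 1530 bases each had 5.93, 5.99 and 5.51 CPM for the deleted label and 4.52, 5.88 and 4.24 CPM for the vehicle label. Kallisto divides reads among targets of near-identical sequence by likelihood, so the split between targets of 1 gene is uncertain.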
